A study of Homo sapiens with 4 samples.

Results

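The genes described here encode 10 proteins of the BCL2 family, which decide whether a cell keeps its mitochondria intact or dies by apoptosis. They were taken by symbol from the 37247 gene rows of the deposited table. Each of the 10 matched 1 row, and all 10 passed the filter on low values. AMO1 is an established human plasmacytoma line, labelled as wild type and used as a model of multiple myeloma. The cells were treated for 6 h with periplocin, a cardiac glycoside that blocks the sodium and potassium pump, at 0.2 mM as the labels give it, or with DMSO, the vehicle, at 0.10%. That concentration is high for a cardiac glycoside, and its unit could not be checked in the files. Total RNA was sequenced from 2 libraries per group. Whether a group's libraries were grown as separate cultures is not stated in the labels. The p-values therefore reflect the spread among these libraries alone, which could be technical.

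The family holds several kinds of protein. Pro-survival members (MCL1, BCL2 and BCL2L1) hold the others in check, effectors (BAX and BAK1) open the outer mitochondrial membrane, and BH3-only members (BBC3, PMAIP1, BCL2L11, BMF and BIK) bind the pro-survival proteins or the effectors and tip the balance towards death. Plasma cells and myeloma cells commonly depend on MCL1, and many BH3-only genes are switched on by stress, so the transcripts of the classes are compared here after drug and vehicle. The values are RNA levels. Much of the control of these proteins, above all of MCL1, acts on the protein itself and was not measured.

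The deposited values are TPM, which are corrected for transcript length and add up to 1000000 in each library. They keep no record of depth, so no counting interval can be given. Levels of 1 TPM or more were seen for 12357 and 12463 genes with periplocin and for 12892 and 12915 with DMSO. The plasma cell identity was checked on 8 markers, all of which were present. They summed to 3558 and 3354 TPM with periplocin and 3662 and 3484 TPM with DMSO, most of it SDC1. Single markers moved apart. SLAMF7 stood at 159.9 and 139.2 TPM with periplocin and 47.8 and 49.9 TPM with DMSO. PRDM1 stood at 29.4 and 27.7 TPM with periplocin and 55.3 and 59.0 TPM with DMSO. IRF4, XBP1 and MZB1 were also lower with periplocin, without overlap, while SDC1, TNFRSF17 and CD38 overlapped between the groups. The 6 B cell markers summed to 13.1 to 16.7 TPM over the 4 libraries, most of it FCER2, and those of T and NK cells (7 genes) to 4.02 to 8.06 TPM. The markers of myeloid cells (6 genes), erythroid cells (3), stroma (4) and endothelium (4) summed to at most 3.48 TPM in any library. Among these markers CD3D, CD2, S100A8, S100A9, HBA1 and VWF were listed at 0 throughout. Fewer transcripts per cell and fewer cells with the transcript cannot be told apart in such bulk samples.

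Genes were tested with limma on log2(TPM + 1), two-sided, with p-values adjusted by Benjamini-Hochberg over the 12947 genes tested, and a gene was called at an adjusted p under 0.05. Fold changes are periplocin over DMSO on that scale, on which weakly expressed genes show too small a change. Of the 10 family genes 6 were called higher (MCL1, BCL2, BAK1, BBC3, PMAIP1 and BMF), where 10.4% of all tested genes were, and 1 was called lower (BIK), where 18.9% were. The calls cut across the classes: 2 of 3 pro-survival genes, 1 of 2 effectors and 3 of 5 BH3-only genes rose. The values of the groups did not overlap for any of the 10, with 7 higher and 3 lower under periplocin, against 25.4% and 43.4% of all tested genes. The median log2 fold change of the 10 was 0.59, and that of all tested genes was -0.14. The smallest p an exact permutation test can give with 2 libraries against 2 is 0.333, so each call depends on the spread that limma pools across genes.

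**Figure D1:**
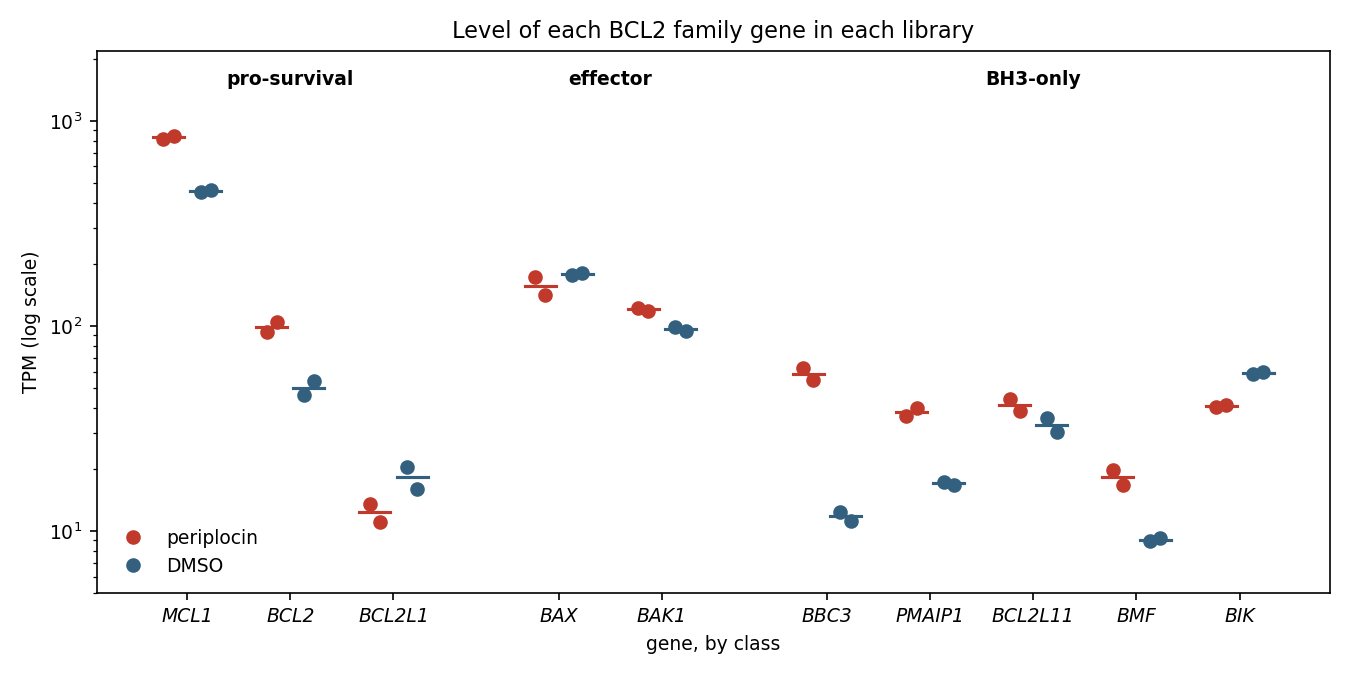
TPM of each gene in each library on a log scale, with periplocin (red) to the left of DMSO (blue), short lines at the group means and genes grouped by class. MCL1 lies above every other gene in all 4 libraries, at 819.9 and 844 TPM with periplocin and 449.9 and 461.5 TPM with DMSO, and BBC3 shows the widest gap between the groups.

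Of the 3 pro-survival genes MCL1 and BCL2 rose and BCL2L1 did not pass. MCL1 (chromosome 1, 150574551 to 150579738 on GRCh38, minus strand) encodes a short-lived guardian of the outer mitochondrial membrane. It stood at 819.9 and 844 TPM with periplocin, against 449.9 and 461.5 TPM with DMSO. Both treated libraries were well above both controls, and the libraries of a group lay close together. MCL1 rose by a log2 difference of 0.87 (SE 0.06, limma adjusted p = 0.00245). BCL2 (chromosome 18, 63123346 to 63320128, minus strand), the founding member of the family and the target of the drug venetoclax, stood at 93.5 and 104.6 TPM with periplocin, against 46.2 and 54.0 TPM with DMSO. BCL2 was thus about as much higher as MCL1, with a log2 fold change of 0.97 (SE 0.12, limma adjusted p = 0.00522). The ratio of MCL1 to BCL2 transcripts was 8.76 and 8.07 with periplocin and 9.75 and 8.55 with DMSO, and these overlap. Neither gene passed without DMSO replicate 1 (limma adjusted p = 0.0976 for both) or DMSO replicate 2 (0.0839 for both).

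BCL2L1 (chromosome 20, 31664452 to 31723989, minus strand) encodes BCL-xL, and its gene row does not separate the long form from a shorter splice form that promotes death. It stood at 13.6 and 11.1 TPM with periplocin and 20.5 and 16.1 TPM with DMSO. Both treated libraries were the lower ones, but the 2 control libraries lay further apart than the nearest libraries of the groups. The log2 fold change was -0.53, with a 95% interval of -0.99 to -0.07 before adjustment, and the gene did not pass (limma adjusted p = 0.0827). Within each library the ratio of BCL2 to BCL2L1 transcripts was 6.87 and 9.46 with periplocin, against 2.25 and 3.35 with DMSO, with no overlap (exact two-sided permutation p = 0.333, the smallest possible). The remaining pro-survival genes were scarce. BCL2L2, which encodes BCL-w, stood at 5.20 and 4.60 TPM with periplocin and 6.83 and 5.60 TPM with DMSO and did not pass (log2 fold change -0.29, limma adjusted p = 0.349). It shares exons with a read-through gene, BCL2L2-PABPN1, at 7.76 and 4.38 TPM with periplocin and 3.20 and 4.81 TPM with DMSO, so the split between the pair is uncertain. BCL2A1 was under 0.36 TPM in every library, and BCL2L10 stood at 0.672 and 0.392 TPM with periplocin and was listed at 0 in both DMSO libraries; neither reached the filter.

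Of the 2 effector genes BAK1 rose by a small amount and BAX did not pass. BAX (chromosome 19, 48954815 to 48961798, plus strand) encodes a protein that moves from the cytosol to the mitochondria when activated. It stood at 173 and 142 TPM with periplocin and 178 and 181 TPM with DMSO. Periplocin replicate 1 was close to the controls and periplocin replicate 2 lower. The log2 fold change was -0.19, with a 95% interval of -0.46 to 0.08, and BAX did not pass (limma adjusted p = 0.229). BAK1 (chromosome 6, 33572547 to 33580293, minus strand), which encodes an effector that resides in the outer membrane, stood at 122 and 118.6 TPM with periplocin, against 98.6 and 94.7 TPM with DMSO. The gap was small but wider than the spread within either group. BAK1 rose by a log2 difference of 0.32 (SE 0.08, limma adjusted p = 0.0361), a call lost without the filter on low values (0.0575) and without the trend of variance with level (0.121), and in each fit that left out 1 library (0.108 to 0.150). BAK1 overlaps GGNBP1 on the other strand, at 0.799 and 1.27 TPM with periplocin and 2.11 and 5.62 TPM with DMSO, and its processed pseudogenes were at no more than 0.259 TPM. BAX transcripts per BAK1 transcript numbered 1.41 and 1.20 with periplocin, against 1.80 and 1.91 with DMSO, without overlap (exact two-sided permutation p = 0.333, the smallest possible).

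BOK, a less understood relative of the effectors, was lower with periplocin. It stood at 6.73 and 2.26 TPM with periplocin and 20.2 and 12.6 TPM with DMSO. All treated values lay under all control values, with a wide spread in both groups. BOK fell by 1.76 on the log2 scale (limma adjusted p = 0.0314), a call lost with quantile normalization, without the trend, without the filter and without periplocin replicate 2 or either DMSO replicate. Its log2 fold change was -2.38 without periplocin replicate 1 and -1.14 without periplocin replicate 2.

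**Figure D2:**
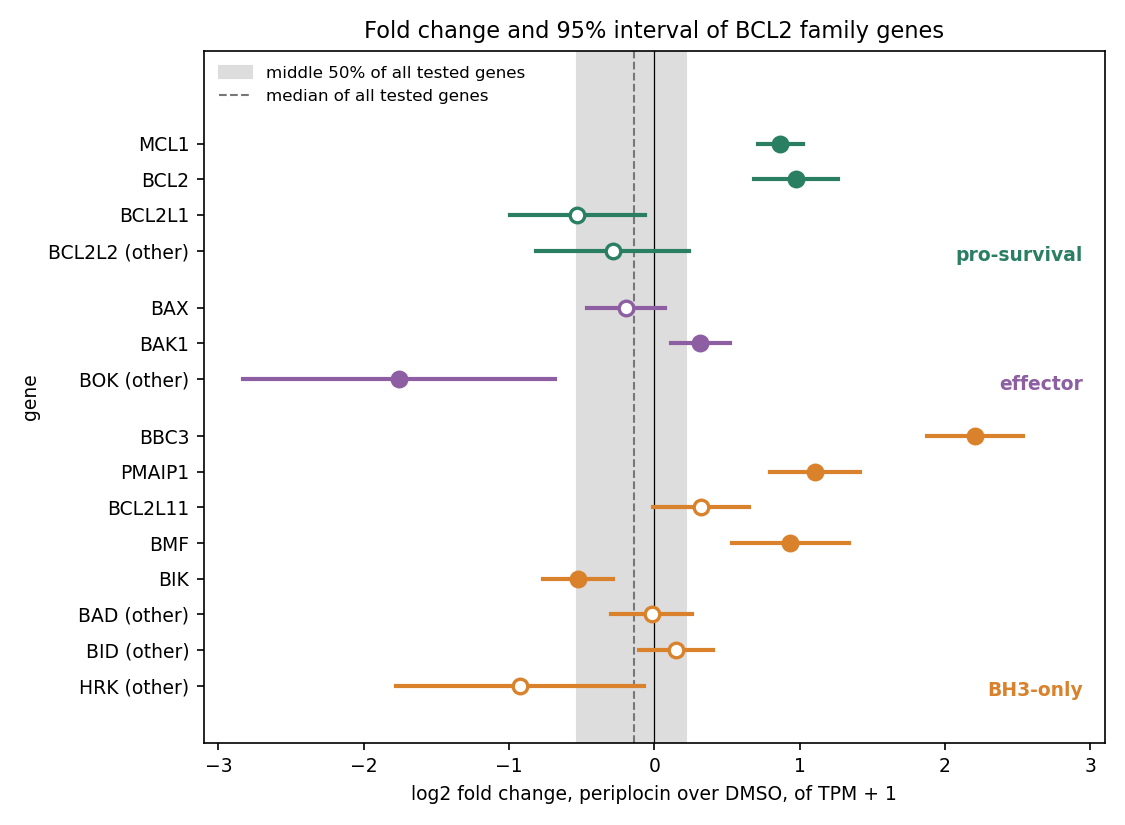
Log2 fold change of TPM + 1, periplocin over DMSO, with limma's 95% interval before adjustment, for the 10 genes and the tested family genes beside them (other). Filled points passed an adjusted p of 0.05, the dashed line is the median of all tested genes (-0.14), the shaded band holds their middle 50% (-0.53 to 0.22), and BBC3 (2.21) lies furthest to the right.

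Of the 5 BH3-only genes BBC3, PMAIP1 and BMF rose, BIK fell and BCL2L11 did not pass. BBC3 (chromosome 19, 47220822 to 47232766, minus strand) encodes PUMA, which binds all the main pro-survival proteins. It stood at 62.4 and 54.5 TPM with periplocin, against 12.4 and 11.3 TPM with DMSO. The treated libraries were far above the controls. BBC3 rose by a log2 difference of 2.21 (SE 0.14, limma adjusted p = 0.00210), the 19th highest fold change among all tested genes. PMAIP1 (chromosome 18, 59899948 to 59904306, plus strand) encodes NOXA, which binds MCL1 above all and favours its breakdown. It stood at 36.3 and 39.7 TPM with periplocin, against 17.4 and 16.8 TPM with DMSO. The groups were far apart relative to their spread, with a log2 fold change of 1.11 (SE 0.13, limma adjusted p = 0.00452). BMF (chromosome 15, 40087890 to 40108892, minus strand), whose protein is held on motor complexes of the cytoskeleton until released by stress, stood at 19.9 and 16.8 TPM with periplocin, against 8.96 and 9.24 TPM with DMSO. BMF rose by a log2 difference of 0.94 (SE 0.16, limma adjusted p = 0.0120), and did not pass without periplocin replicate 1 (0.0662) or without DMSO replicate 1 (0.114) or 2 (0.0985). BBC3 and PMAIP1 did not pass without DMSO replicate 1 (limma adjusted p = 0.0976 for both) or 2 (0.0839 for both).

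The sequences before the start sites of these 3 risen BH3-only genes are shown so that their differing make-up can be seen. They come from RefSeq on GRCh38.p14 and are cut to the bases that no exon in GENCODE 29 covers on that strand. Capitals mark matches, on either strand, to GGGCGG (the GC box), CACGTG (the E-box that MYC and its partners bind) or TGACGT (the core of the cAMP response element, a motif chosen after the sequences had been seen).
BBC3 (chr19:47232767-47232917, minus strand): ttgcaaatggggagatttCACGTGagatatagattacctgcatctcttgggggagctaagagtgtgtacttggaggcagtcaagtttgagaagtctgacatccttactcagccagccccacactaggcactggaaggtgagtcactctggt
PMAIP1 (chr18:59899746-59899947, plus strand): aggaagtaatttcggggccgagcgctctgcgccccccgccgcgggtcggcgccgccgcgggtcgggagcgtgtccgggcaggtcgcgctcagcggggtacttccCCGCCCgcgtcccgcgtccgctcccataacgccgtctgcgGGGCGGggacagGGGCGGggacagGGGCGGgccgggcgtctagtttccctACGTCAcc
BMF (chr15:40108893-40109129, minus strand): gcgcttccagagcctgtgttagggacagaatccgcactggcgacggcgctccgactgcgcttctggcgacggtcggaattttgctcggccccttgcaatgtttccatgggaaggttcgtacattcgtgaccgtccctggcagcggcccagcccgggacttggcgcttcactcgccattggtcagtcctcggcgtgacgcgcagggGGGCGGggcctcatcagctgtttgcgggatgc
Over the 250 bases before the start, the BBC3 window held 1 CACGTG and no GC box. The PMAIP1 window held GC boxes at 4 places and 1 TGACGT, and the BMF window shown held 1 GC box. Of 35116 RefSeq windows of this length 6.34% held CACGTG, 7.10% held TGACGT and 42.6% held GGGCGG. None of these motifs was matched in the windows of BCL2, which rose, and BCL2L1, or at a further start site of BMF. GC boxes were also matched in the windows of BAK1, which rose, and BCL2L11, which did not pass. BAX, which did not pass either, held 4 CACGTG and 1 GC box in its window, and the stretch clear of exons shows 2 of the E-boxes.
BAX (chr19:48954625-48954814, plus strand): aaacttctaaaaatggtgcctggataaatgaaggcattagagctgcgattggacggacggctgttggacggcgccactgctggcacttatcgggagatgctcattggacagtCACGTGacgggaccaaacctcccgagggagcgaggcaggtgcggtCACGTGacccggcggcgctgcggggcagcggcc
GTAAACA, the core bound by FOXO factors (2.98% of windows), was matched only in BCL2L11. Neither TGACGTCA (1.65% of windows, overlapping TGACGT) nor TGATGCAA (0.772%) was matched in any family window. Windows were matched for 8 of the 10 genes, those other than MCL1 and BIK, with a further start site for BMF and for BCL2L1. The letters of a motif are a description of the window and say nothing of a factor's binding in these cells.

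BCL2L11 (chromosome 2, 111119378 to 111168447, plus strand) encodes BIM, the main BH3-only protein that restrains lymphocyte numbers. It stood at 43.9 and 38.7 TPM with periplocin and 35.4 and 30.3 TPM with DMSO. The treated libraries were the higher ones, but the nearest libraries of the groups lay closer together than the 2 libraries within either group. The log2 fold change was 0.32, with a 95% interval of -0.01 to 0.65, and BCL2L11 did not pass (limma adjusted p = 0.120). Its fold change was 0.21 without DMSO replicate 2 and 0.49 with median centring. BIK (chromosome 22, 43110748 to 43129712, plus strand), whose protein acts mainly at the endoplasmic reticulum, was lower with periplocin. It stood at 40.4 and 41.0 TPM with periplocin, against 58.4 and 59.9 TPM with DMSO. The libraries of each group were nearly equal and the groups clearly apart. BIK fell by 0.53 on the log2 scale (SE 0.10, limma adjusted p = 0.0139), a call lost in each fit that left out 1 library (adjusted p between 0.0616 and 0.108).

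The 3 other BH3-only genes outside the 10 did not pass. BID, which CASP8 cleaves to link death receptors to mitochondria, stood at 106.8 and 92.7 TPM with periplocin and 92.7 and 86.7 TPM with DMSO, so the groups nearly touched (log2 fold change 0.15, 95% interval -0.11 to 0.41). The fold change of BID was 0.05 without periplocin replicate 1, 0.25 without periplocin replicate 2 and 0.29 with size factors. BAD, which survival signals hold inactive by phosphorylation, stood at 36.4 and 36.7 TPM with periplocin and 35.2 and 39.0 TPM with DMSO, with overlap (-0.02, 95% interval -0.30 to 0.26). HRK, a BH3-only gene known mainly from neurons, stood at 0.223 and 0.371 TPM with periplocin and 1.03 and 1.99 TPM with DMSO, without overlap (-0.93, limma adjusted p = 0.0947).

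The order of levels differed between the groups. With periplocin the mean levels ran from MCL1 through BAX, BAK1, BCL2, BBC3, BCL2L11, BIK, PMAIP1 and BMF down to BCL2L1, and the only neighbours that overlapped were BCL2L11 and BIK. With DMSO they ran from MCL1 through BAX, BAK1, BIK, BCL2, BCL2L11, BCL2L1, PMAIP1 and BBC3 down to BMF, and the only neighbours that overlapped were BCL2L1 and PMAIP1. BBC3 was thus in position 5 with periplocin and in position 9 with DMSO, and BIK in positions 7 and 4. The top 3 places were the same in both groups. Per BIK transcript there were 1.54 and 1.33 BBC3 transcripts with periplocin, against 0.213 and 0.188 with DMSO, with no overlap (exact two-sided permutation p = 0.333, the smallest possible).

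Summed over each class, the levels show how the pool of family transcripts was made up. The pro-survival genes summed to 927 and 959.9 TPM with periplocin, against 517 and 532 TPM with DMSO. MCL1 alone was 88.4% and 87.9% of that sum with periplocin and 87.1% and 86.8% with DMSO. The effectors summed to 295 and 261 TPM with periplocin and 276 and 276 TPM with DMSO, so the groups overlapped. The BH3-only genes summed to 203 and 191 TPM with periplocin, against 133 and 127 TPM with DMSO.

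Despite the rise in BBC3, the BH3-only share of the family's transcripts overlapped between the groups, at 14.2% and 13.5% with periplocin and 14.3% and 13.6% with DMSO. The pro-survival share was 65.0% and 68.0% with periplocin, against 55.8% and 56.9% with DMSO, and the effector share was 20.7% and 18.5% with periplocin, against 29.8% and 29.5% with DMSO. The make-up of the BH3-only class differed more. BBC3 took 30.8% and 28.6% of it with periplocin, against 9.38% and 8.84% with DMSO, while BIK took 19.9% and 21.5% with periplocin, against 44.0% and 47.0% with DMSO. PMAIP1 took 17.9% and 20.8% with periplocin and 13.1% and 13.2% with DMSO.

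**Figure D3:**
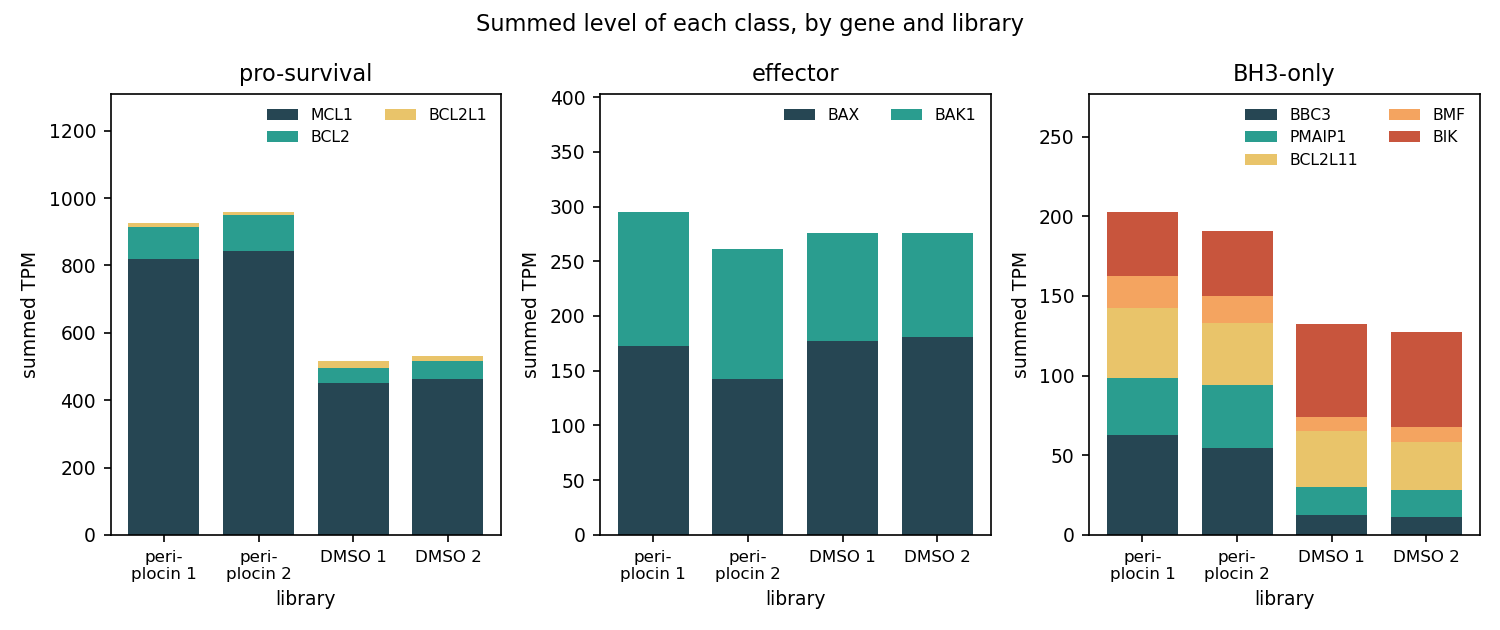
Summed TPM of each class in each library, with the periplocin libraries to the left of the DMSO libraries and each bar split by gene. The pro-survival bars are almost wholly MCL1, and within the BH3-only bars the BBC3 segment is taller and the BIK segment shorter in the periplocin libraries.

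The ratios of the class sums compare the classes in pairs and, like the shares, do not depend on a scaling factor per library. There were 0.219 and 0.199 BH3-only transcripts per pro-survival transcript with periplocin, against 0.257 and 0.240 with DMSO, a difference of -0.25 on the log2 scale. The sign depended on BIK. In alternatives chosen after seeing the data, with BIK alone left out the difference was 0.29, with MCL1 alone left out it was -0.11 with overlapping groups, and with BBC3 alone left out it was -0.62. With both MCL1 and BIK left out it was 0.43, and with the further family genes added to the classes it was -0.47. Effector transcripts per pro-survival transcript were 0.319 and 0.272 with periplocin, against 0.535 and 0.519 with DMSO (a log2 difference of -0.84, or -0.39 with MCL1 and BAX left out). BH3-only transcripts per effector transcript were 0.687 and 0.731 with periplocin, against 0.480 and 0.462 with DMSO (0.59, or 0.28 with BAX, 1.13 with BIK and 0.22 with BBC3 left out). Over all members each of these 3 ratios separated the groups without overlap, at an exact two-sided permutation p of 0.333, the smallest possible. Per MCL1 transcript there were 0.0761 and 0.0645 BBC3 transcripts with periplocin, against 0.0276 and 0.0244 with DMSO, and 0.0442 and 0.0470 PMAIP1 transcripts with periplocin, against 0.0387 and 0.0363 with DMSO.

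Genes around the family were read from lists by their counts and medians, beside 10.4% higher, 18.9% lower and a median of -0.14 over all tested genes. No tested gene passed in the fits that left out a DMSO replicate. Every call named from these lists was thus lost there, also where this is not repeated. Of 7 tested relatives with looser ties to the family 1 rose and 1 fell (median log2 fold change 0.04). BCL2L13, a mitochondrial protein with a role in the removal of mitochondria, fell by 1.51, with 7.18 and 5.89 TPM under periplocin and 19.8 and 20.9 TPM under DMSO. BNIP3L, a receptor for the removal of mitochondria, rose by 0.51 (limma adjusted p = 0.0499), a call lost at a pseudocount of 0.1 and with several other settings. Of 17 genes of the apoptosome, the caspases and their inhibitors 2 rose and 3 fell (median 0.09). ENDOG, a mitochondrial nuclease, fell by 1.27, with 15.2 and 16.6 TPM under periplocin and 39.9 and 39.6 TPM under DMSO. CASP9, the caspase that the apoptosome activates, fell by 0.95, with 4.77 and 4.27 TPM under periplocin and 9.94 and 9.39 TPM under DMSO, a call lost without the filter on low values (limma adjusted p = 0.066) and without any 1 of the 4 libraries (0.0575 to 0.129). CASP6, an executioner caspase, fell by 0.86, a call lost under all 3 scaling alternatives (0.0682 to 0.0828), without the trend, without the filter and without periplocin replicate 2, where the fold change was -0.57, or either DMSO replicate. BIRC3, an inhibitor of apoptosis, rose by 0.84.

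Of 12 outer membrane partners 1 rose and 4 fell (median -0.08). MFN1, a fusion protein of mitochondria, rose by 1.02, with 40.4 and 57.8 TPM under periplocin and 26.4 and 20.6 TPM under DMSO, a call lost without the trend (limma adjusted p = 0.0514), without the filter (0.0808) and without periplocin replicate 2 (0.0764) or either DMSO replicate. The import channel TOMM40 fell by 0.75. FIS1, a fission factor (-0.52), and the import receptor TOMM22 (-0.48) were lower as deposited, and neither passed with size factors or median centring, without the trend, without the filter or without any 1 of the 4 libraries. Of 15 tested genes that act on the turnover or phosphorylation of MCL1 and BIM proteins 4 rose and 3 fell (median 0.15). MARCHF5, a ubiquitin ligase of the outer mitochondrial membrane, rose by 1.18, with 43.4 and 42.6 TPM under periplocin and 19.6 and 17.2 TPM under DMSO. GSK3B, a kinase that phosphorylates MCL1, rose by 0.70, and FBXO4, a ubiquitin ligase subunit, fell by 1.24. The GSK3B call was lost without the trend (limma adjusted p = 0.064), without the filter (0.101) and without any 1 of the 4 libraries (0.0519 to 0.189). The FBXO4 call was lost without the filter (0.080) and without periplocin replicate 2 (0.0607) or either DMSO replicate.

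Of 20 transcription factors known to act on BH3-only genes 6 rose and 2 fell (median 0.40). With size factors 9 rose and 1 fell, where 2012 and 1745 of all 12947 tested genes did. ATF3 (1.24), SP1 (1.04) and DDIT3 (0.96), factors of stress or general transcription, rose, and MYC fell by 1.11, with 278 and 282 TPM under periplocin and 578 and 631 TPM under DMSO. The ATF3 call was lost without the trend (limma adjusted p = 0.0512), without the filter (0.114) and without periplocin replicate 1 (0.111) or either DMSO replicate.

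**Figure D4:**
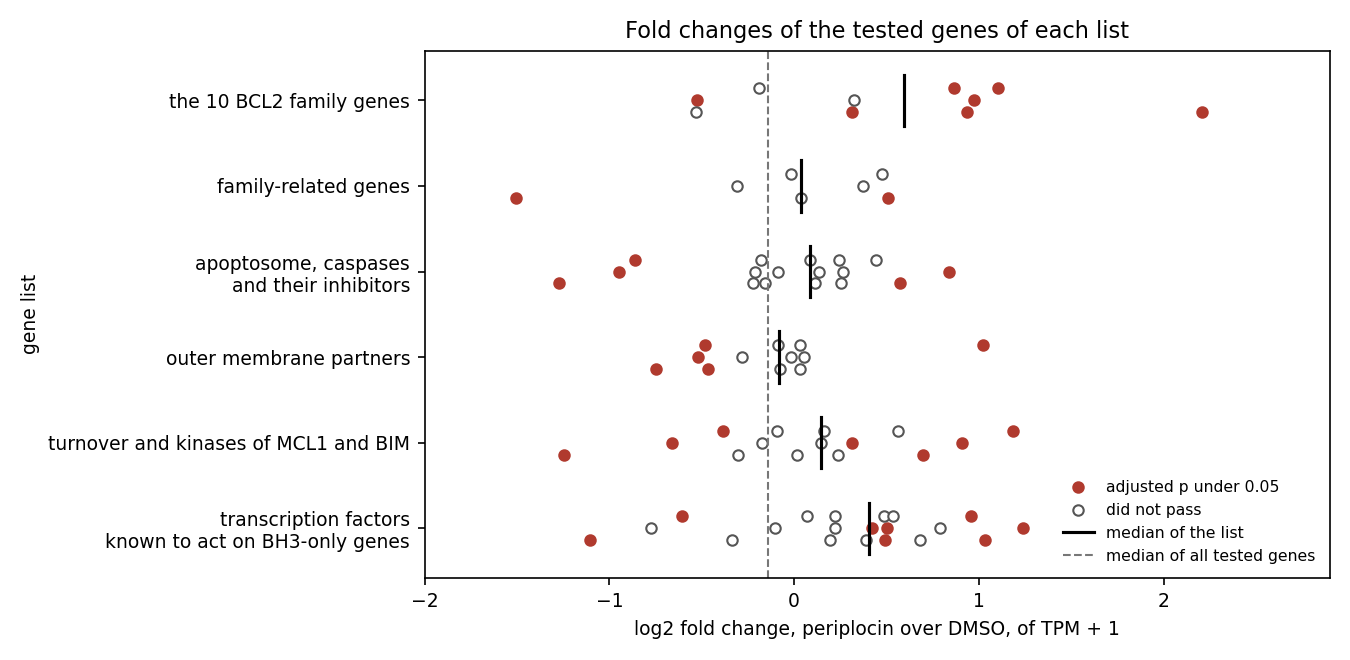
Log2 fold change, periplocin over DMSO, of each tested gene of the 10 BCL2 family genes and 5 lists around them. Red points passed an adjusted p of 0.05, open points did not, black bars are list medians and the dashed line is the median of all tested genes (-0.14), to the left of every list median shown.

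Among all tested genes with a mean of at least 5 TPM in the higher group, those whose 4 values, set against their own DMSO mean, lay nearest to MCL1 were CTSK (log2 fold change 0.87), NEMP1 (0.85) and PCNA (0.87), at Euclidean distances of 0.0160, 0.0346 and 0.0425 on the log2 scale over 4 libraries. The nearest to BBC3 were TNFSF9 (2.25), EGR2 (2.17) and RFX1 (2.09), at distances of 0.157, 0.194 and 0.242. With 4 libraries in 2 groups this measure reflects mainly the size of the fold change.

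Size factors and median centring moved the fold changes together. Quantile normalization moved them unevenly, with MCL1 going from 0.87 to 0.83 and BMF from 0.94 to 1.14. The median of all tested genes was -0.14 as deposited, -0.01 with median-of-ratios size factors and 0.02 with median centring, and the balance of all calls was 1352 higher to 2443 lower as deposited and 2012 to 1745 with size factors. The 6 higher calls and the 1 lower call in the family were the same in number under all 3 scaling alternatives. The fold change of BAX was -0.05 with size factors, -0.03 with median centring and -0.19 with quantile normalization. Without periplocin replicate 1 or 2 it was -0.33 and -0.05. The fold change of BCL2L1 was -0.39 with size factors, -0.37 with median centring and -0.35 with quantile normalization. No gene of the 10 changed sign under any alternative. In the fits without DMSO replicate 1 or 2 none of the 10 passed, nor did any other tested gene by limma, although 3925 and 4156 had an unadjusted p below 0.05. Without periplocin replicate 1 or 2 the family had 4 and 5 genes called higher and 0 called lower.

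**Figure D5:**
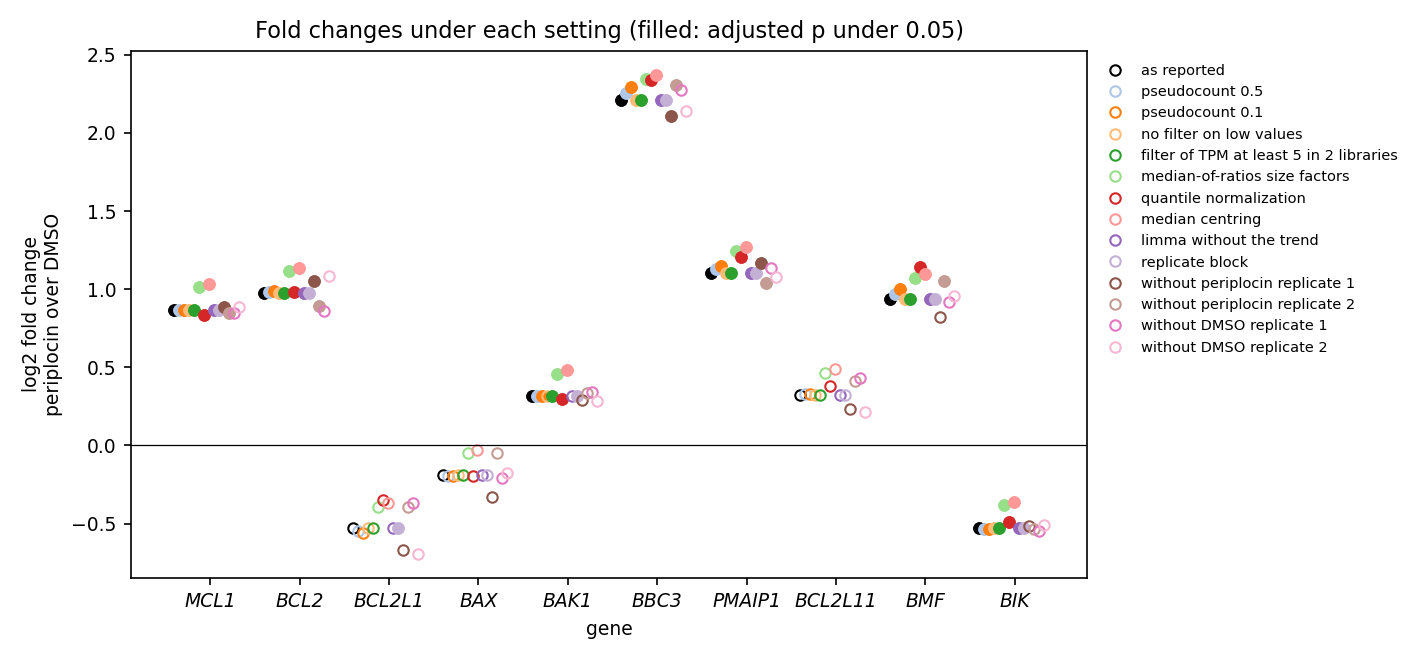
Log2 fold change, periplocin over DMSO, of each of the 10 genes as reported (black) and under each of the 13 alternatives (colours). Filled points passed an adjusted p of 0.05 and open points did not. Each gene stays on its side of 0, and the open points of the 6 higher genes come mainly from fits that left out a library.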

How the data were processed

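RNA of AMO1 cells was sequenced from 2 periplocin and 2 DMSO libraries. The authors deposited 1 table of TPM values, 1 column per library, in which each column sums to 1000000. The authors used GRCh38 and DESeq2, per the submitters' processing notes, which give no role for either. Which aligner, quantifier, annotation and strand setting were used was not given in the sources used here. Columns headed PP were read as periplocin. Symbols came from a table of current gene names, which held 34436 of 37247 identifiers, and positions from GENCODE 29, whose versioned identifiers matched all 10 genes.

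The 12947 genes that reached 1 TPM in 2 or more libraries were tested with limma 3.58.1 in R 4.3.3, with a variance trend, on log2(TPM + 1). The fit had 2 residual and 4.01 prior degrees of freedom. It was tried on simulated data drawn from limma's own variance model, so that trial cannot show how it does where these libraries depart from the model. Standard errors and 95% intervals are limma's. Exact permutation tests used scipy 1.17.1, plots matplotlib 3.10.9, and tables pandas 2.3.3 with numpy 2.4.6, under Python 3.11.15. Alternatives changed the pseudocount (0.5 and 0.1), the filter, the scaling, the trend, the replicate block and the libraries included.

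The members and lists were chosen with earlier results of these data known. All 10 genes and the other family genes were named. From each further list up to 4 called genes with the largest change were named. Some items of these lists are not reported here. The 3 genes nearest in pattern to MCL1 and to BBC3 were also named.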

Additional observations from a re-analysis of the deposited data

How the results depend on the processing

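Of the comparisons of the 10 genes under the 9 alternatives that kept all libraries, 87 of 90 kept their direction and their side of the threshold. The exceptions were BAK1 with no filter on low values (log2 fold change 0.32, limma adjusted p = 0.0575) and without the trend (0.32, 0.121), and BCL2L1, which passed with the replicate block (-0.53, 0.0426). With that replicate block 2 of the 10 genes were lower, and 1685 and 2876 of all genes were higher and lower. The labels do not say whether same-numbered libraries were paired. Deviations of same-numbered libraries correlated at 0.03 over the tested genes, a single value that cannot show whether they were prepared together. With no filter 613 genes were higher and 1026 lower, without the trend 876 were higher, and with median centring 2117 were higher and 1553 lower. Leaving out 1 library gave fold changes of 0.85 to 0.89 for MCL1, 0.86 to 1.08 for BCL2, 0.29 to 0.34 for BAK1, 2.11 to 2.30 for BBC3, 1.04 to 1.17 for PMAIP1, 0.82 to 1.05 for BMF, -0.55 to -0.51 for BIK, and, for the genes not called, -0.69 to -0.37 for BCL2L1, -0.33 to -0.05 for BAX and 0.21 to 0.43 for BCL2L11. The calls for the 10 genes then ranged over 0 to 5 higher and 0 to 0 lower, and those of all genes over 0 to 522 and 0 to 1142.

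The log2 difference in the ratio of BH3-only to pro-survival transcripts was -0.25 and became 0.43 without the gene of each class with the highest mean over the 4 libraries (MCL1 and BIK here). In alternatives chosen after seeing the data it was 0.29 with BIK alone left out and -0.11 with MCL1 alone left out. Of the other named genes BAD changed sign with size factors (0.12), quantile normalization (0.031), median centring (0.15) and without DMSO replicate 2 (-0.089 to 0.053 over the fits that left out 1 library), and BCL2L2 with quantile normalization (0.022); neither was called. The cause of these changes was not tested.

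For the lists around the family, counts of calls that differed by over 1.5 times from those reported were as follows. With a filter of 5 TPM in 2 libraries 2 looser relatives were higher. Without the trend they were 0 higher for looser relatives, 0 lower for the further effector BOK, 0 higher and 1 lower for outer membrane partners, and 2 and 3 higher for turnover genes and transcription factors. With no filter on low values they were 0 higher for looser relatives, 0 lower for BOK, 1 lower for apoptosome genes, 0 higher and 1 lower for outer membrane partners, 2 higher and 0 lower for turnover genes, and 2 higher and 1 lower for transcription factors. With size factors and with median centring 5 apoptosome genes and 2 looser relatives were higher, 1 transcription factor was lower, and 2 and 1 outer membrane partners were lower; median centring also left 1 turnover gene lower and 11 transcription factors higher. With quantile normalization 2 looser relatives were higher, 0 effectors and 1 transcription factor lower. Looser relatives had 0 higher at a pseudocount of 0.1, and 0 higher and 2 lower with the replicate block, where 4 apoptosome genes were higher. Leaving out 1 library gave 0 to 2 higher and 0 to 2 lower for apoptosome genes, 0 to 0 and 0 to 1 for looser relatives, 0 to 1 lower for BOK, 0 to 1 and 0 to 1 for outer membrane partners, 0 to 2 and 0 to 1 for turnover genes, and 0 to 4 and 0 to 1 for transcription factors. The lower ends of these ranges were set by the fits without a DMSO replicate, where no tested gene passed. Those ends are therefore not particular to any list. The counts over all tested genes moved as well, from 1352 higher and 2443 lower of 12947 as reported. They were 2012 and 1745 after size factors, 2117 and 1553 after median centring, and 1757 and 1758 after quantile normalization. Omitting the trend gave 876 and 1932, the replicate block 1685 and 2876, and omitting the filter 613 and 1026 of 21232. A filter of 5 TPM gave 1446 and 2445 of 10001. Whether any list moved beyond this shift was not tested. With 2 libraries a group, and depth unknown from TPM, small differences cannot be resolved.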
